A study of Mus musculus with 64 samples.

Results

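The early responses of macrophages to IFN-beta and to IFN-gamma were compared at matching times, in 8 of the 64 arrays of the study. The arrays were chosen by their labels, as BALB/c cells given IFN-beta at 10 U/ml or IFN-gamma at 10 U/ml for 1 h or 2 h, with 2 arrays for each interferon and time and so 4 arrays a side. All cells were macrophages grown from femoral bone marrow of male BALB/c mice aged 7 to 8 weeks and kept in CSF1, which drives macrophage growth, at 10000 U/ml, which the untreated cells received too. An array held labelled total RNA (250 ng) of 1 well of 200000 cells. Untreated cells were collected at 0 h only, so a change from 0 h also holds whatever changed in culture within the same hours. The difference between the interferons at a matching time does not rest on the 0 h wells. The labels do not say whether the wells came from separate cultures of separate mice, and the p-values below measure the spread between wells. Both doses are in activity units, and equal units of different proteins are not equal amounts.

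IFN-beta is a type I interferon and binds a receptor made of Ifnar1 and Ifnar2. It activates the kinases Tyk2 and Jak1, and a complex that holds Stat2 and Irf9 then binds the interferon-stimulated response element (ISRE) of antiviral genes. IFN-gamma, the type II interferon made mostly by lymphocytes, binds Ifngr1 and Ifngr2, activates Jak1 and Jak2, and acts largely through the gamma-activated site (GAS). In macrophages IFN-gamma is known for priming against intracellular microbes and for antigen presentation, and type I interferon for the antiviral state. The pathways share many target genes.

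Levels are log2 of the deposited normalised intensity, and a difference is IFN-beta minus IFN-gamma on that scale ± SE from limma, with n = 4 arrays a side for the mean of 1 h and 2 h. A level depends on the probe set and is not compared between genes. A gene was called when its adjusted p (limma, Benjamini-Hochberg over 18820 genes) was under 0.05 and its absolute difference was at least 1 log2, a 2-fold difference.

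Array medians lay between 25.6 and 29.0 in intensity over the 64 arrays. Precision is limited by having 2 arrays a group. Probe sets without a gene parted the arrays into a class of 53 and a class of 11, of unknown origin, and of the 8 arrays 1, replicate 2 of IFN-gamma at 2 h, was in the smaller class. The other array of that group, replicate 1 of IFN-gamma at 2 h, was high in transcripts that also stood high in the LPS arrays. The pair differed by over 1.5 log2 in 23 genes, against 3 to 5 in the other 3 groups and 0 at 0 h. In the array called replicate 1, Il1b was at 8.41, Ptgs2 at 9.64, Cxcl2 at 9.46 and Nos2 at 7.13, against 4.19, 5.59, 5.90 and 4.52 in replicate 2. In BALB/c cells given LPS the means at 2 h were 11.55 for Il1b, 11.65 for Ptgs2, 12.53 for Cxcl2 and 5.84 for Nos2. The counts of called genes are given with and without replicate 1 of IFN-gamma at 2 h. Differences of genes not called are given with it only, unless stated. Those of Tnf, Cd83, Egr2 and Tnip3 below are among them. All 7 macrophage markers measured were present (mean levels from 9.27 for Mertk to 13.21 for Lyz2), with a summed intensity of 33581 to 35546 in the IFN-beta arrays and 31368 to 35491 in the IFN-gamma arrays. Markers of granulocytes, dendritic cells, lymphoid cells, stromal cells and the erythroid and megakaryocyte lineages held no called gene among 11, 10, 12, 10 and 6 measured. Of these, 4, 4, 9, 4 and 3 lay on average below 4.19 log2, the 40th percentile over all probe sets. Their summed intensities overlapped between the interferons, at 479 to 533 with IFN-beta and 497 to 554 with IFN-gamma for granulocytes, 287 to 337 and 293 to 324 for dendritic cells, 208 to 226 and 201 to 232 for lymphoid cells. They were 285 to 298 and 286 to 324 for stromal cells and 665 to 768 and 537 to 833 for the erythroid and megakaryocyte genes. In RNA from whole wells, fewer cells that carry a transcript and less of it per cell cannot be told apart.

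IFN-beta and IFN-gamma differed in 55 of 18820 genes over 1 to 2 h (0.292%). With IFN-beta 36 genes were higher (0.191%), led by Mx1 of the Mx family (8.28-fold), the RNA-binding protein Ifit1 (7.14-fold), the death ligand Tnfsf10 (6.09-fold) and the antiviral enzyme Rsad2 (5.92-fold). With IFN-gamma 19 genes were higher (0.101%), among them the adhesion molecule Selp (5.71-fold, against IFN-beta levels that may be near background), the pseudokinase Trib1 (4.65-fold), the Cdc42 effector Cdc42ep2 (3.69-fold) and the small GTPase Rnd3 (3.52-fold). In 52 of the 55 genes all 4 arrays of one interferon lay beyond all 4 of the other. The exceptions, Cd69, Gbp4 and Il15ra, were apart within each time. The share of all genes with all 4 arrays beyond the other 4 was not computed. All 55 met a looser measure, both arrays of one interferon beyond both of the other within each time. By it, IFN-beta lay above IFN-gamma in 17.3% of all genes at 1 h, 21.1% at 2 h and 4.52% at both times. It lay below in 19.7%, 20.4% and 4.26%. The median difference over all genes was 0.00 log2. Against 0 h, over all genes, 0.786% were called with IFN-beta and 0.648% with IFN-gamma in either direction. Of the 36 genes higher with IFN-beta, 30 were called higher than 0 h with IFN-beta (0.755% of all genes) and 10 with IFN-gamma (0.59%), and 3 were called lower than 0 h with IFN-gamma (0.0584%). Of the 19 genes higher with IFN-gamma, 17 were called higher than 0 h with IFN-gamma and 3 with IFN-beta, and 1 was called lower than 0 h with IFN-beta (0.0319%). The 0 h arrays are shared by these comparisons with 0 h, and the 8 treated arrays are those that chose the 55 genes. The counts of arrays lying apart and of calls against 0 h among the 55 are therefore description and not separate evidence.

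The promoter sequence of the called genes was searched for the sites that the pathways are known to use. RefSeq windows from 250 bases before to 50 bases after the start (GRCm38.p6) were at hand for 27 of the 36 genes higher with IFN-beta, 16 of the 19 higher with IFN-gamma and 14739 of all genes tested. The ISRE was searched as a pair of GAAA with any 2 bases between them and the GAS as TTCNNNGAA, on both strands. An ISRE match lay in the windows of 8 of the 27 genes higher with IFN-beta (29.6%), 2 of the 16 higher with IFN-gamma (12.5%) and 3.91% of all genes. A GAS match lay in 2 of the 27 (7.41%), 5 of the 16 (31.25%) and 9.06% of all genes. A gene could have several windows, on average 1.26, 1.5 and 1.23 in these sets. Counted by window, an ISRE match lay in 23.5%, 8.33% and 3.27%, and a GAS match in 5.88%, 20.8% and 7.72%. The GC content of the windows was 54.7%, 57.2% and 57.2%. These shares are a description, with small numbers and no test, and a match is no proof of binding. The stretches below show the matches upstream of the start in the named genes with the largest differences that had one, read 5′ to 3′ on the strand of the gene, with the match in capitals. In the first 3 the capitals are the ISRE as read from the other strand, and in the last 2 they are the GAS.
Ifit1, chr19:34640745-34640853, plus strand: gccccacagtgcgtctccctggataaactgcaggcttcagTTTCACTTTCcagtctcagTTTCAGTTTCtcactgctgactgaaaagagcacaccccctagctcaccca
Rsad2, chr12:26456523-26456612, minus strand: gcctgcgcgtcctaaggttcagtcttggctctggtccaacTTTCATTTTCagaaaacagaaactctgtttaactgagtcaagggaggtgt
Mmp13, chr9:7272328-7272417, plus strand: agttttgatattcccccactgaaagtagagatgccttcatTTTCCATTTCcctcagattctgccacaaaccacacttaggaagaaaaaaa
Pde4b, chr4:102569870-102569958, plus strand: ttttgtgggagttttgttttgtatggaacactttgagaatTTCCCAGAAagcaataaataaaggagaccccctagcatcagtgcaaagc
Socs3, chr11:117969472-117969560, minus strand: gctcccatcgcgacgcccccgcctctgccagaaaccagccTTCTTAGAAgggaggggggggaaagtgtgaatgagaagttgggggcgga
Ifit1 held 2 ISRE matches, 104 and 85 bases before the start. The other matches began 120 bases before the start in Rsad2, 146 in Mmp13, 150 in Pde4b and 154 in Socs3.

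Of 9 measured genes for the receptors, Janus kinases and STATs none was called, and their differences ran from -0.21 for Stat3 to 0.51 for Stat2. Ifnar1 (-0.01 ± 0.08), Ifnar2 (-0.12 ± 0.10), Ifngr1 (-0.11 ± 0.13) and Ifngr2 (-0.04 ± 0.06) had levels between 9.62 and 11.66 in the 8 arrays. Jak1 differed by 0.00 ± 0.05, Tyk2 by 0.07 ± 0.13 and Jak2 by 0.26 ± 0.13. Stat2, a subunit of the type I complex, stood at 10.41, 10.82, 10.75 and 10.90 with IFN-beta and at 10.41, 10.11, 10.26 and 10.03 with IFN-gamma, against 9.58 and 9.70 at 0 h. It was called higher than 0 h with IFN-beta (1.08) and missed the minimum with IFN-gamma (0.56), and the difference of 0.51 ± 0.17 missed the threshold (adjusted p = 0.119).

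Genes of antiviral families held the largest differences in favour of IFN-beta, as RNA. Whether the BALB/c cells made working proteins from them was not tested. In the Ifit, Mx and Oas families 6 of 12 measured genes were called higher with IFN-beta, against 0.191% of all genes. None was called lower (0.101% of all genes), and the median difference of these families was 1.04 log2. Against 0 h the family medians were 2.00 with IFN-beta and 0.58 with IFN-gamma, where the medians over all genes were -0.03 and -0.03. Mx1 was at 5.79 and 5.89 at 0 h, at 8.89 and 9.41 with IFN-beta at 1 h and at 9.99 and 9.82 at 2 h. With IFN-gamma it was at 5.98 and 6.25 at 1 h and at 7.29 and 6.40 at 2 h. Every IFN-beta array therefore stood above every IFN-gamma array, and the 1 h arrays of IFN-gamma were within 0.5 log2 of both 0 h arrays (3.05 ± 0.28, adjusted p = 6.93e-10). Ifit1, which binds viral RNA lacking the host cap methylation, was at 6.44 and 6.89 at 0 h, and with IFN-beta at 10.71, 10.91, 11.47 and 11.38. With IFN-gamma it was at 7.75, 7.85, 9.03 and 8.50, a rise as well (1.62 from 0 h), and the difference was 2.84 ± 0.28 (adjusted p = 2.84e-09). Mx2, the other Mx gene, was at 5.25 and 4.99 at 0 h, at 9.07, 9.79, 9.55 and 9.65 with IFN-beta and at 6.70, 7.06, 7.64 and 7.18 with IFN-gamma. Mx2 rose from 0 h with both interferons and was 5.16-fold higher with IFN-beta than with IFN-gamma (2.37 ± 0.24, adjusted p = 2.84e-09).

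The rest of these families followed in size. Ifit3 differed by 1.90 ± 0.29 (adjusted p = 2.82e-05), Ifit2 by 1.56 ± 0.31 (adjusted p = 0.00106) and Oasl1, of the oligoadenylate synthetase-like proteins, by 1.48 ± 0.27 (adjusted p = 0.000437). Ifit3b, a near copy of Ifit3 whose probes may share its RNA, differed by 1.98 ± 0.30. Ifit2 was at 9.93, 10.66, 11.13 and 11.08 with IFN-beta and at 8.56, 8.62, 9.87 and 9.51 with IFN-gamma, so that the lowest IFN-beta array lay just above the highest IFN-gamma array. None of the other 6 measured genes, all of the Oas family, was called. Their differences ran from 0.27 for Oas2 to 0.60 for Oas1b, which was called higher than 0 h with both interferons (1.99 and 1.40).

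Among 29 other antiviral effectors 4 were called higher with IFN-beta (0.191% of all genes) and none lower (0.101%). The median was 0.40 log2. Rsad2, the enzyme viperin that makes a chain-terminating nucleotide, was at 8.63 and 8.76 at 0 h and at 12.32, 12.55, 12.83 and 12.69 with IFN-beta. With IFN-gamma it was at 9.43, 9.42, 10.91 and 10.37, so the gap was 3.01 at 1 h and 2.12 at 2 h. Cmpk2, a mitochondrial nucleotide kinase and neighbour of Rsad2 in function and genome, was at 11.76, 12.04, 12.22 and 12.20 with IFN-beta and at 9.57, 9.51, 10.66 and 10.10 with IFN-gamma (2.09 ± 0.24, adjusted p = 5.58e-08). Isg20, an RNA exonuclease, was at 8.07 and 7.87 at 0 h, at 9.35, 10.08, 10.64 and 10.52 with IFN-beta and at 8.37, 8.27, 8.53 and 8.12 with IFN-gamma. The IFN-gamma arrays of Isg20 stayed within 0.7 log2 of 0 h, and Isg20 passed the test against 0 h with IFN-beta (2.17) and not with IFN-gamma (0.35). The ubiquitin-like modifier Isg15 was higher with IFN-beta by 1.35 ± 0.26 (adjusted p = 0.000674). Below the minimum, Nt5c3 (0.90), Ddx60 (0.74), Ifi35 (0.60) and Samd9l (0.47) had an adjusted p under 0.05. With the called genes, 13 of the 29 had one on the IFN-beta side and none on the IFN-gamma side. Over all 18820 genes 215 and 212 had one.

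**Figure D1:**
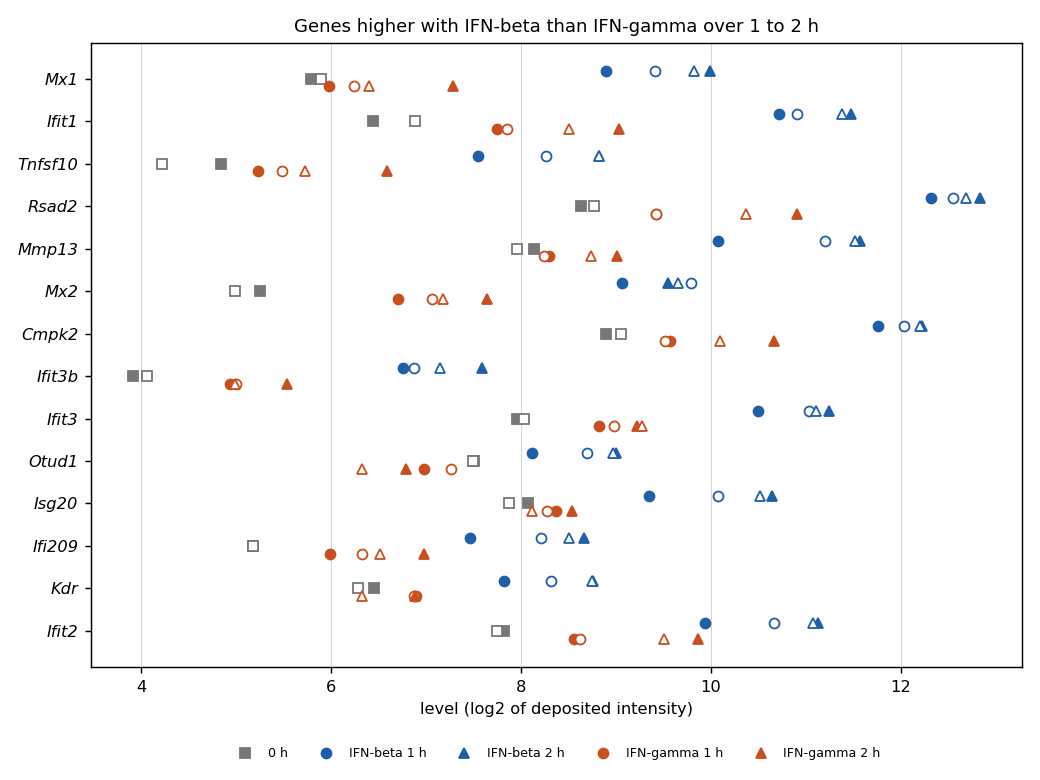
Levels (log2 of deposited intensity) of the 14 named genes with the largest differences in favour of IFN-beta, one point an array: grey squares 0 h, blue IFN-beta, orange IFN-gamma, circles 1 h, triangles 2 h, filled replicate 1 and open replicate 2. Levels run along the horizontal axis. In each gene the 4 blue points lie to the right of the 4 orange ones; for Isg20 and Kdr the orange points lie near the grey ones, and for Otud1 to the left of them.

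Sensors of foreign nucleic acid held no called gene of their list (0 of 16, median 0.24), though 4 passed the adjusted p alone. These were the RNA helicases Ddx58 (0.84 ± 0.11), Ifih1 (0.82 ± 0.12) and Dhx58 (0.66 ± 0.08) and the receptor Tlr3 (0.39 ± 0.10). Of the DNA-binding Ifi200 cluster, Ifi205 stands in this list and was not called (1.14 ± 0.34, adjusted p = 0.0677; 0.0491 among genes above the 40th percentile and 0.000232 among the 32 BALB/c arrays, where it was). Ifi209 and Ifi214, outside the list, were called. Ifi209 was at 5.18 and 5.18 at 0 h, at 7.46, 8.21, 8.66 and 8.50 with IFN-beta and at 5.99, 6.32, 6.98 and 6.51 with IFN-gamma (1.76 ± 0.28, adjusted p = 3.84e-05). Ifi214 differed by 1.37 ± 0.32 (adjusted p = 0.00777) from IFN-gamma levels of 3.44 to 4.73, which may be near background. Its adjusted p was 0.0815 without replicate 2 of IFN-beta at 1 h and 0.075 without replicate 2 of IFN-gamma at 1 h. Genes of this cluster are close copies, so their probe sets may read each other's RNA. Of 6 Schlafen genes, 11 TRIM ligases and 5 PARP genes none was called, with medians of 0.51, 0.27 and 0.32. Slfn1 had a difference of 1.23 ± 0.41 that missed the threshold (adjusted p = 0.146). Slfn1 passed in the fit of the 32 BALB/c arrays (adjusted p = 0.000393). Trim30d differed by 0.95 ± 0.23, and was called with each of 4 single arrays left out, at 1.01 to 1.21. Parp14, an ADP-ribosyltransferase, differed by 0.56 ± 0.13 (adjusted p = 0.00628).

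Guanylate-binding and immunity-related (IRG) GTPases act on the vacuoles of intracellular microbes. Of 9 measured, 8 were called higher than 0 h with IFN-beta (0.755% of all genes) and 7 with IFN-gamma (0.59%). Their medians against 0 h were 2.71 and 2.09. Between the interferons the median difference of the 9 was 0.55 log2. By adjusted p alone 2 passed on the IFN-beta side and 0 on the IFN-gamma side. Gbp4 was the one called between the interferons, at 6.18, 6.80, 7.44 and 7.47 with IFN-beta and at 5.02, 5.44, 6.15 and 6.27 with IFN-gamma (1.25 ± 0.24, adjusted p = 0.000594). Irgm1 stood at 11.19 to 12.00 with IFN-beta and at 11.36 to 11.94 with IFN-gamma, overlapping throughout (0.08 ± 0.15). Iigp1 rose by 4.29 and 3.86 from 0 h and did not pass the test between the interferons (0.43 ± 0.32, adjusted p = 0.735). Of the 17 listed, the other 8 were not analysed here.

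Among secreted and surface proteins, Tnfsf10, the death ligand TRAIL, was at 4.84 and 4.22 at 0 h, at 7.55, 8.27, 8.82 and 8.82 with IFN-beta and at 5.23, 5.48, 6.59 and 5.72 with IFN-gamma (2.61 ± 0.26, adjusted p = 2.83e-09). It was the only one of 16 death ligand, receptor and apoptosis genes called, in a list whose median was 0.04. The pro-apoptotic Bcl2l11 went the other way, below the minimum (-0.77 ± 0.09, adjusted p = 5.17e-08). Ccl4, which attracts T cells and monocytes, was at 8.32 and 8.22 at 0 h, at 10.49, 11.28, 11.28 and 11.33 with IFN-beta and at 9.92, 9.79, 9.88 and 9.57 with IFN-gamma. Ccl4 rose from 0 h with both interferons and was 2.48-fold higher with IFN-beta than with IFN-gamma (1.31 ± 0.13, adjusted p = 4.94e-09). Among 18 chemokines Ccl4 was called on this side and Cxcl9 on the other (median 0.05). Cxcl10, a ligand of Cxcr3 as Cxcl9 is, rose by 5.36 with IFN-beta and 4.56 with IFN-gamma and differed by 0.80 ± 0.18 in favour of IFN-beta (adjusted p = 0.00642), under the minimum. Ccl2 and Ccl7, which attract monocytes, differed by 0.11 ± 0.07 and 0.29 ± 0.10.

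Of 24 cytokines and their receptors Il15ra, which presents IL-15 to lymphocytes, was the only one called (1.12 ± 0.17, adjusted p = 1.48e-05). Its difference was 0.95 without replicate 2 of IFN-beta at 1 h and 0.98 without replicate 2 of IFN-gamma at 2 h, and so under the minimum. Its ligand Il15 differed by 0.59 ± 0.11 (adjusted p = 0.000801). The anti-inflammatory Il10 was low on these arrays, at 4.73, 4.63, 4.61 and 4.48 with IFN-beta and at 4.04, 3.79, 3.41 and 3.35 with IFN-gamma. These levels did not overlap (0.97 ± 0.16, adjusted p = 5.96e-05), but lay around the 40th percentile over all probe sets, where signal may be near background. Tnf was lower with IFN-beta by 0.62 ± 0.10 (adjusted p = 3.2e-05). Il1a, chosen after its values were seen, was at 4.95, 5.88, 6.20 and 6.38 with IFN-beta and at 6.87, 6.88, 8.95 and 7.05 with IFN-gamma, where the 8.95 is the array high in Il1b. Its difference of -1.58 ± 0.56 did not pass (adjusted p = 0.181). Ifnb1 itself stayed at 2.95 to 3.45 in all 8 arrays, against 3.25 and 3.39 at 0 h.

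The activation antigen Cd69 rose with both interferons, by 4.63 with IFN-beta and 3.42 with IFN-gamma. It differed by 1.21 ± 0.15 (adjusted p = 5.06e-07), and by 0.97 without replicate 2 of IFN-beta at 1 h. It was the only called gene of 17 for co-stimulation, adhesion and checkpoint control (median 0.09). In that list Slamf7 (0.98 ± 0.12) and the checkpoint ligand Cd274 (0.70 ± 0.14) passed the adjusted p on the IFN-beta side. Cd83 (-0.98 ± 0.19) and the adhesion molecule Icam1 (-0.67 ± 0.08) did so on the IFN-gamma side. Ccrl2, an atypical chemoattractant receptor, differed by 1.05 ± 0.12, by 0.88 without replicate 2 of IFN-gamma at 2 h and by 0.98 without replicate 2 of IFN-beta at 1 h. The Notch ligand Dll1 differed by 1.11 ± 0.13, from levels of 5.04 to 5.31 with IFN-beta and 3.85 to 4.23 with IFN-gamma, the latter possibly near background. Kdr, the receptor VEGFR2, was at 6.46 and 6.28 at 0 h, at 7.82, 8.31, 8.75 and 8.74 with IFN-beta and at 6.89, 6.88, 6.88 and 6.33 with IFN-gamma (1.66 ± 0.11, adjusted p = 5.56e-14). Kdr passed the test against 0 h with IFN-beta (2.04) and not with IFN-gamma (0.37).

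Enzymes higher with IFN-beta included Mmp13, a collagenase. It was at 8.13 and 7.96 at 0 h, at 10.07, 11.19, 11.56 and 11.52 with IFN-beta and at 8.30, 8.25, 9.01 and 8.74 with IFN-gamma, a difference of 2.51 ± 0.13 (adjusted p = 7.72e-17). Mmp13 passed the test against 0 h with IFN-beta (3.04) and not with IFN-gamma (0.53). Ch25h, which makes the antiviral oxysterol 25-hydroxycholesterol, was at 6.45 and 6.41 at 0 h, at 8.92, 10.03, 10.00 and 10.06 with IFN-beta and at 8.41, 8.32, 8.81 and 8.36 with IFN-gamma. It rose with both and differed by 1.28 ± 0.15 (adjusted p = 1.45e-07), the only called gene of 14 effector enzymes. Nos2, known for late induction, was at 3.82, 4.19, 7.13 and 4.52 with IFN-gamma and at 4.00 to 4.69 with IFN-beta, the high value again in the array high in Il1b. Lipg, a phospholipase of the endothelial lipase kind, differed by 1.47 ± 0.18 (adjusted p = 2.74e-07). The deubiquitinase Otud1 was at 7.50 and 7.49 at 0 h, at 8.12 and 8.69 with IFN-beta at 1 h and at 8.97 or above at 2 h, and at 6.98, 7.26, 6.79 and 6.33 with IFN-gamma. Its arrays thus lay above 0 h with one interferon and below with the other (1.85 ± 0.13, adjusted p = 4.71e-13). The fall with IFN-gamma, 0.66 log2 in size, was under the minimum. Usp18, which removes Isg15 and blocks the type I receptor, differed by 1.26 ± 0.19 (adjusted p = 2.02e-05).

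In 3 genes higher with IFN-beta the called change from 0 h was a fall with IFN-gamma. Rgs2, a regulator of G protein signalling, was at 10.77 and 10.73 at 0 h, at 10.96, 10.87, 10.96 and 10.87 with IFN-beta and at 9.83, 9.86, 9.77 and 9.44 with IFN-gamma (1.19 ± 0.07, adjusted p = 5.38e-15). It had fallen by 1.02 from 0 h with IFN-gamma and stood 0.17 above it on average with IFN-beta. Its relative Rgs1 was at 10.30 and 10.14 at 0 h, at 10.03, 9.65, 9.95 and 9.81 with IFN-beta and at 8.63, 8.43, 8.93 and 9.14 with IFN-gamma (1.07 ± 0.16, or 0.98 without replicate 1 of IFN-beta at 1 h). The MAP kinase phosphatase Dusp1 was at 10.62 and 10.68 at 0 h, at 10.31, 10.32, 9.76 and 9.79 with IFN-beta and at 8.90, 8.97, 9.27 and 9.03 with IFN-gamma. Dusp1 was below 0 h with both, further so with IFN-gamma (a fall of 1.61), and its difference of 1.01 ± 0.13 is at the edge of the minimum. It was 0.95 without replicate 2 of IFN-gamma at 2 h, 0.99 without replicate 1 of IFN-gamma at 1 h and 1.00 without replicate 2 of IFN-beta at 2 h, under the minimum each time. Cited2, a co-regulator that competes for the acetyltransferase p300, lay above 0 h with IFN-beta (0.69) and below with IFN-gamma (-0.46), and differed by 1.15 ± 0.07 (adjusted p = 6.5e-16).

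The other genes higher with IFN-beta were Rubcnl (1.48 ± 0.15), an autophagy regulator, the helicase Helz2 (1.14 ± 0.21), Phf11a (1.18 ± 0.25), Tmem171 (1.16 ± 0.09), the cyclin Ccnj (2.14-fold) and the unnamed A530040E14Rik (1.15 ± 0.15). Ccnj and Helz2 were both at 0.96 without replicate 2 of IFN-gamma at 2 h. Ccnj was also at 0.96 without replicate 2 of IFN-beta at 1 h, where the adjusted p of Phf11a was 0.0501.

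Of the 19 genes higher with IFN-gamma 16 were in none of the gene lists. Selp, P-selectin, known as the adhesion molecule of platelets and endothelium, was at 3.67 and 3.97 at 0 h. With IFN-gamma it was at 6.14 and 6.10 at 1 h and at 7.21 and 7.01 at 2 h, and with IFN-beta at 3.76, 3.87, 3.91 and 4.87. It had thus risen with IFN-gamma (2.79 from 0 h), while 3 of the 4 IFN-beta arrays stayed under the 40th percentile of all probe sets, so that the size of the difference is uncertain (-2.51 ± 0.15, adjusted p = 4.47e-15). Of the erythroid and megakaryocyte markers, the platelet gene Ppbp lay at 3.79 to 4.55 in the 8 arrays (-0.18 ± 0.15, adjusted p = 0.772). Pf4, the brightest of these markers, had a mean level of 9.27, and which cells carried Selp was not tested. Trib1, a pseudokinase that targets C/EBP proteins for degradation, was at 6.60 and 6.70 at 0 h, at 8.42, 8.44, 8.19 and 7.93 with IFN-gamma and at 6.31, 5.86, 6.12 and 5.82 with IFN-beta. The 4 IFN-gamma arrays lay above 0 h and the 4 IFN-beta arrays below it, the latter by 0.63 on average, under the minimum (difference -2.22 ± 0.14, adjusted p = 2.58e-14). Its relative Trib3, tied to stress responses, differed by -1.19 ± 0.11 (adjusted p = 6.67e-10).

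Cdc42ep2, an effector of Cdc42, was at 6.48 and 6.48 at 0 h, at 8.90, 8.63, 9.31 and 9.12 with IFN-gamma and at 6.79, 7.15, 7.26 and 7.23 with IFN-beta (-1.88 ± 0.10, adjusted p = 4.29e-17). Rnd3, a small GTPase that acts on the cytoskeleton, was at 6.83 and 6.68 at 0 h, at 7.80, 7.88, 8.26 and 8.32 with IFN-gamma and at 6.38, 5.94, 6.26 and 6.42 with IFN-beta. All IFN-beta arrays of Rnd3 lay under 0 h and all IFN-gamma arrays above it (-1.82 ± 0.09, adjusted p = 2.62e-17). Kcnj2, the inward rectifier potassium channel Kir2.1, was at 7.17 and 7.18 at 0 h. It was at 8.14, 7.98, 8.37 and 8.64 with IFN-gamma and at 7.12, 6.94, 6.11 and 6.23 with IFN-beta (-1.69 ± 0.13, adjusted p = 8.71e-12). The IFN-beta arrays at 2 h were about 1 log2 below 0 h, those at 1 h near it.

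In cyclic AMP signalling, Pde4b, which degrades cyclic AMP, was at 6.17 and 6.29 at 0 h, at 7.54, 7.71, 7.94 and 7.98 with IFN-gamma and at 6.29, 6.41, 6.32 and 6.15 with IFN-beta (2.83-fold higher with IFN-gamma, adjusted p = 4.2e-14). The IFN-beta arrays of Pde4b did not leave the 0 h level. Ptger4, the prostaglandin E2 receptor EP4 that raises cyclic AMP, was at 9.37, 9.18, 9.47 and 9.59 with IFN-gamma and at 7.92, 8.10, 8.65 and 8.42 with IFN-beta (-1.13 ± 0.08, adjusted p = 8.1e-13). Both were called higher than 0 h with IFN-gamma alone. Of other receptors, the Wnt receptor Fzd7 was at 10.36, 10.25, 10.53 and 10.00 with IFN-gamma and at 9.26, 9.07, 8.80 and 8.86 with IFN-beta, against 9.21 and 9.10 at 0 h (-1.29 ± 0.19, adjusted p = 1.01e-05). Gpr18 differed by -1.09 ± 0.19, Gpr146 by -1.01 ± 0.13 and the lectin-like Clec1a by -1.09 ± 0.17. Gpr146 rose with both interferons (1.04 and 2.05).

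Several smaller differences on this side fell under the minimum when a single array was left out. Without replicate 1 of IFN-gamma at 2 h, Clec1a was at -0.88, Gpr146 at -0.95, the histone demethylase Kdm6b at -0.98 (from -1.18 ± 0.23) and the small Maf factor Maff at -0.95 (from -1.10 ± 0.14), each under the minimum. The array then left in that group was in the smaller array class. With the class as a covariate besides this omission, Clec1a was at -0.75, under the minimum. Gpr146 was then at -1.12, Kdm6b at -1.41 and Maff at -1.07, beyond it. Without replicate 1 of IFN-beta at 1 h, Clec1a was at -0.91 and Gpr146 at -0.86. Without replicate 1 of IFN-beta at 2 h they were at -0.98 and -0.94, and without replicate 2 of that group Maff was at -0.98. Taking the mean of its probe sets put Kdm6b at -0.73. Kept with any single array left out were the calls of the transglutaminase Tgm1 (-1.15 ± 0.11) and Mcts2 (-1.26 ± 0.15), a retrotransposed copy of Mcts1 whose probe set may read its parent's RNA. Osgin1, an oxidative stress-induced growth inhibitor, was at 7.98 and 7.96 at 0 h, at 8.02, 8.04, 8.24 and 8.36 with IFN-gamma and at 7.42, 6.86, 6.61 and 6.82 with IFN-beta. It was the 1 gene of this side that differed through a called fall with IFN-beta, by 1.04 from 0 h (-1.24 ± 0.11, adjusted p = 1.78e-10).

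**Figure D2:**
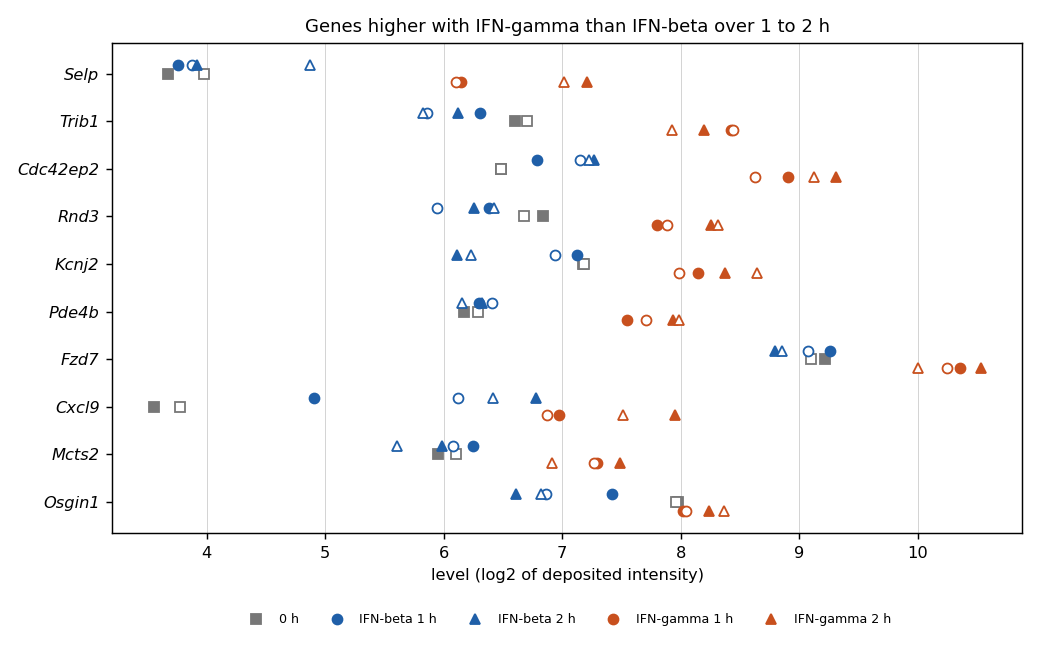
Levels (log2 of deposited intensity) of the 10 named genes with the largest differences in favour of IFN-gamma, one point an array, with symbols as in the plot of genes higher with IFN-beta. In each gene the 4 orange points lie to the right of the 4 blue ones, and for Selp and Pde4b the blue points lie mostly at the grey 0 h points.

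Socs3 and Cxcl9, targets of both interferons, were higher with IFN-gamma. Socs3, a feedback inhibitor of cytokine receptors, was at 5.75 and 5.63 at 0 h, at 10.86, 10.99, 10.74 and 10.66 with IFN-gamma and at 8.23, 10.23, 10.20 and 9.93 with IFN-beta. It rose by 5.12 and 3.96 from 0 h, and the 8.23 in replicate 1 of IFN-beta at 1 h stood far under its replicate. The difference of -1.17 ± 0.21 (adjusted p = 0.000244) was -0.67 without that array and -0.99 for the mean of its probe sets, and so under the minimum in both. In fits of the 8 arrays alone its adjusted p was 0.245 with time as a block and 0.234 with 4 group means. Of the 9 feedback inhibitors, Socs3 and Usp18 were called. Socs1 differed by 0.18 ± 0.18 after rises of 3.71 and 3.54, and Cish by -0.37 ± 0.19. Cxcl9 was at 3.55 and 3.77 at 0 h, at 6.98, 6.87, 7.95 and 7.52 with IFN-gamma and at 4.90, 6.12, 6.78 and 6.42 with IFN-beta (-1.27 ± 0.30, adjusted p = 0.00999). Its adjusted p was 0.0628 without replicate 1 of IFN-gamma at 2 h, 0.0704 without replicate 2 of IFN-beta at 2 h and 0.147 without replicate 1 of IFN-beta at 1 h.

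Irf1, a transcription factor of the interferon response, was called higher than 0 h with both (3.23 and 3.53). It was at 8.50 and 8.39 at 0 h, at 11.21, 11.78, 11.88 and 11.81 with IFN-beta and at 12.07, 11.99, 11.84 and 11.98 with IFN-gamma (-0.30 ± 0.09, adjusted p = 0.0572). Of the 8 interferon regulatory factors none was called (median 0.07). Irf8, a factor of macrophage identity and IFN-gamma response, was higher with IFN-gamma by 0.62 log2 in size (-0.62 ± 0.09, adjusted p = 5.77e-06). Irf2 (0.44 ± 0.11) and Irf5 (0.44 ± 0.09) passed the adjusted p on the IFN-beta side. In antigen presentation 0 of 7 MHC class II genes (median -0.02) and 0 of 16 MHC class I genes (median 0.15) were called. The class II transactivator Ciita was at 5.39, 5.40, 5.80 and 5.38 with IFN-beta and at 5.75, 6.11, 6.20 and 5.53 with IFN-gamma (-0.41 ± 0.15, adjusted p = 0.207), overlapping between the interferons. The immunoproteasome subunit Psmb10 differed by 0.45 ± 0.11 (adjusted p = 0.0217).

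Of 24 immediate early genes Dusp1 and Maff were called. By adjusted p without a minimum, these included, 7 passed on the IFN-gamma side and 2 on the IFN-beta side, in a list whose median was -0.05. Next to Maff in size, Egr2 (-0.80 ± 0.15), Zfp36 (-0.67 ± 0.08) and Fosl2 (-0.60 ± 0.14), encode regulators of transcription and, for Zfp36, of mRNA decay. Of 16 genes of the NF-kB pathway none was called (median 0.02), and Tnip3 had the largest value (-0.78 ± 0.13, adjusted p = 0.00016). In 12 Fc and complement genes (median 0.02, Fcgr1 0.35 ± 0.11), 19 macrophage identity genes (0.02, Mertk 0.25 ± 0.14) and 21 cell cycle genes (-0.06, Rrm2 -0.24 ± 0.15) no gene was called. Over all genes and with the called genes included, 427 passed by adjusted p without a minimum, 215 on the IFN-beta side and 212 on the IFN-gamma side.

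**Figure D3:**
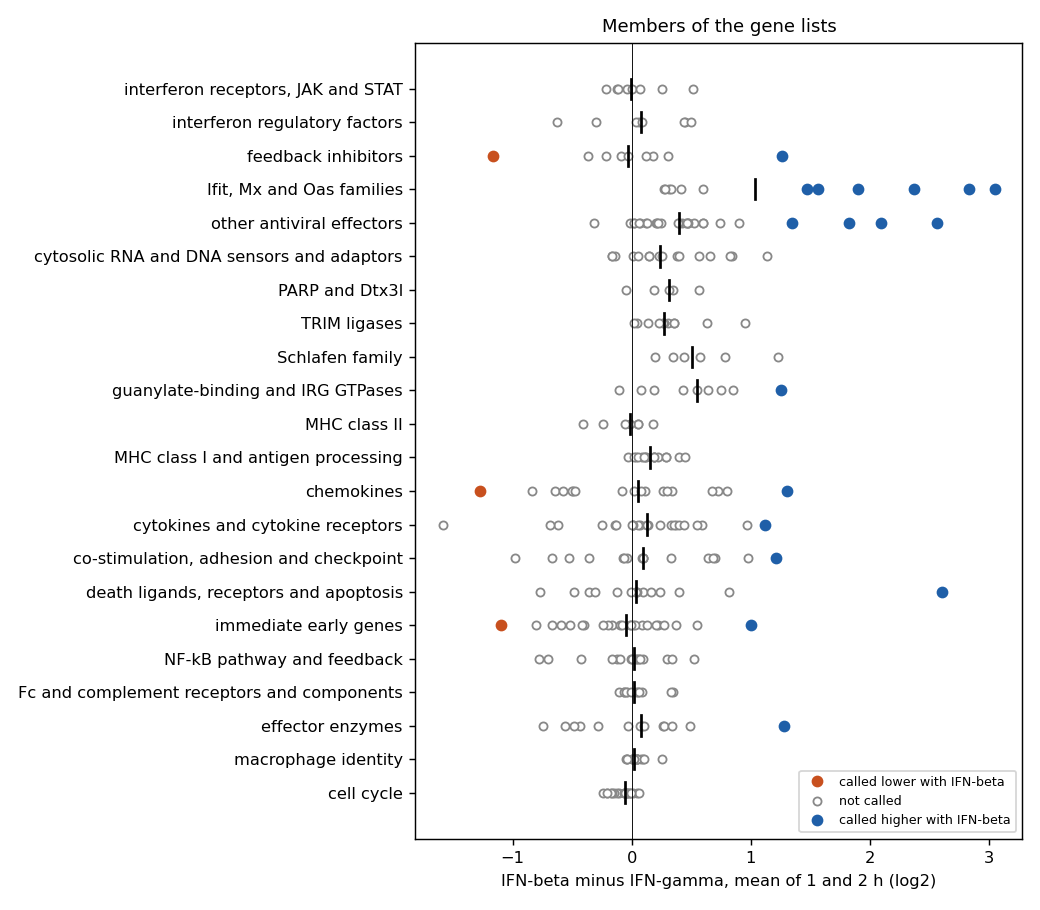
Difference IFN-beta minus IFN-gamma (log2, mean of 1 and 2 h) of each measured member of the gene lists, one point a gene, with the list's median as a black bar. Filled blue points are called higher with IFN-beta, filled orange points called lower, open grey points not called. The Ifit, Mx and Oas families have the highest median, 1.04, and most lists have medians near 0.

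Without replicate 1 of IFN-gamma at 2 h, the array high in Il1b, 60 genes were called, 45 higher and 15 lower with IFN-beta. Of the 55 genes 50 kept their call, and Clec1a, Cxcl9, Gpr146, Kdm6b and Maff lost it. Gained were 10 genes, with Slamf7 (1.08) and Trim30d (1.09) among them. With the array class as a covariate 60 genes were called (39 and 21), 52 of them shared with the 55, and among arrays of the larger class only 61 were (31 and 30), 50 of them shared. The 14 genes named on the IFN-beta side and the 10 on the IFN-gamma side other than Cxcl9 kept their call in each of these 3 fits. A group left with a single array is assumed to vary like the other groups. The calls lost with the array class as a covariate were those of Dusp1 (0.97), Ccrl2 (0.99) and Helz2 (0.95), each under the minimum.

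At the single times 46 genes were called at 1 h (0.244%), 30 higher and 16 lower with IFN-beta, and 82 at 2 h (0.436%), 47 and 35. These counts do not show that the gap widened. In the test of the change of the difference from 1 h to 2 h no gene was called (limma, 1444 genes at an unadjusted p under 0.05, and 0 called by limma with trend and robust settings). Largest among the called genes were Kcnj2, from -1.03 at 1 h to -2.34 at 2 h (adjusted p = 0.151), and Otud1, from 1.29 to 2.42 (adjusted p = 0.317). Socs3 went from -1.70 to -0.63, with its 1 h value resting on discordant replicates (adjusted p = 0.644). Of the 36 genes higher with IFN-beta 28 were called the same way at 1 h and 29 at 2 h. Of the 19 others 13 and 14 were. Over all genes 0.159% and 0.25% were called higher, and 0.085% and 0.186% lower. The 36 and the 19 genes were chosen on the mean of these same 1 h and 2 h differences. Their counts at the single times are therefore description and not separate evidence that the times agree. The split between the sides depended on single arrays at both times. At 1 h it was 42 higher and 13 lower without replicate 1 of IFN-beta at 1 h, and 13 and 22 without replicate 2. At 2 h it was 79 higher and 31 lower without replicate 1 of IFN-gamma at 2 h, and 29 and 56 without replicate 2. The change between the times was called for 3 and 4 genes without the one or the other, for 7 without replicate 2 of IFN-beta at 1 h and for 1 without replicate 1 of IFN-beta at 2 h.

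**Figure D4:**
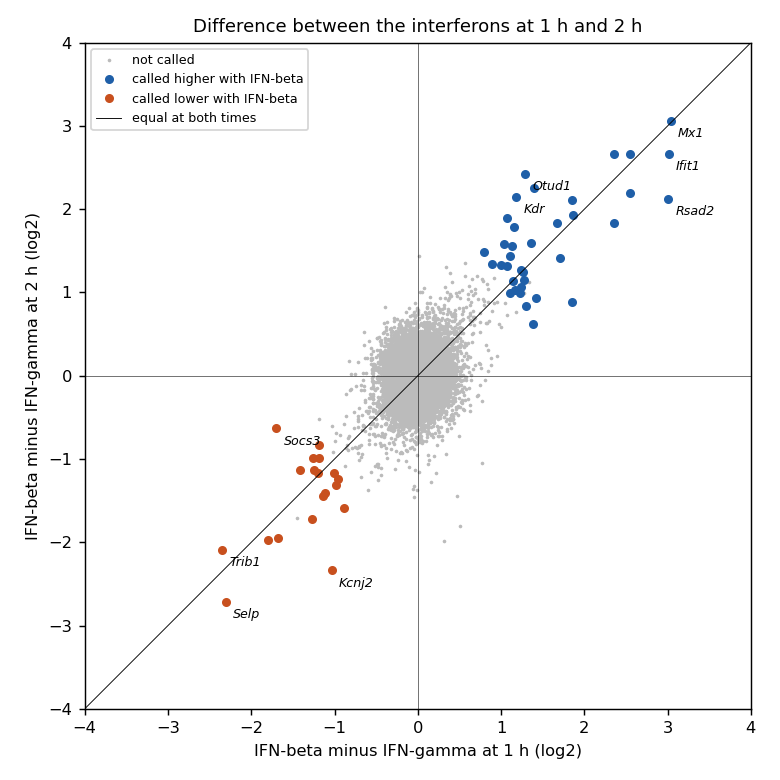
Difference IFN-beta minus IFN-gamma at 1 h (horizontal, log2) against that at 2 h (vertical, log2), one point a gene, with the line of equal values. The genes called over both times lie in the upper right (blue, 36) and lower left (orange, 19), on both sides of the line; Mx1, at 3.04 and 3.06, lies on it and Kcnj2, at -1.03 and -2.34, below it.

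The early differences were followed to later times in the same fit. At 4 h 47 of the 55 were called the same way (85.5%), at 8 h 25 (45.5%) and at 24 h 6 (10.9%), where 1.75%, 1.48% and 1.66% of all genes were called in either direction. Higher with IFN-beta were 1.05%, 0.909% and 0.632% of all genes, and lower 0.701%, 0.574% and 1.03%. The median difference of the 36 genes higher with IFN-beta was 1.28 at 1 h, 1.53 at 2 h, 1.55 at 4 h, 1.30 at 8 h and -0.29 at 24 h. For the 19 higher with IFN-gamma it was -1.20, -1.31, -1.78, -0.63 and -0.42. Still higher with IFN-beta at 24 h was Ifit3b (1.45). Still higher with IFN-gamma then were Cxcl9 (-4.09), Cdc42ep2 (-1.93), Socs3 (-1.38), Gpr18 (-1.32) and Trib3 (-1.15). The difference in Selp was gone by 24 h (-0.02, after -3.35 at 4 h), and that in Mx1 was -0.80 then and not called. Of the 36 genes 7 were called in the opposite direction at 24 h, Gbp4, Tnfsf10, Otud1, Lipg, Ch25h, Cd69 and Il15ra. Without replicate 1 of IFN-gamma at 2 h this count was 8 of 45, and 76.7%, 41.7% and 8.33% of the 60 genes then called over 1 to 2 h were called the same way at 4, 8 and 24 h. At 4 h both IFN-beta arrays and replicate 1 of IFN-gamma were in the smaller array class, and with the class as a covariate the share called the same way at 4 h was 81.7%.

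**Figure D5:**
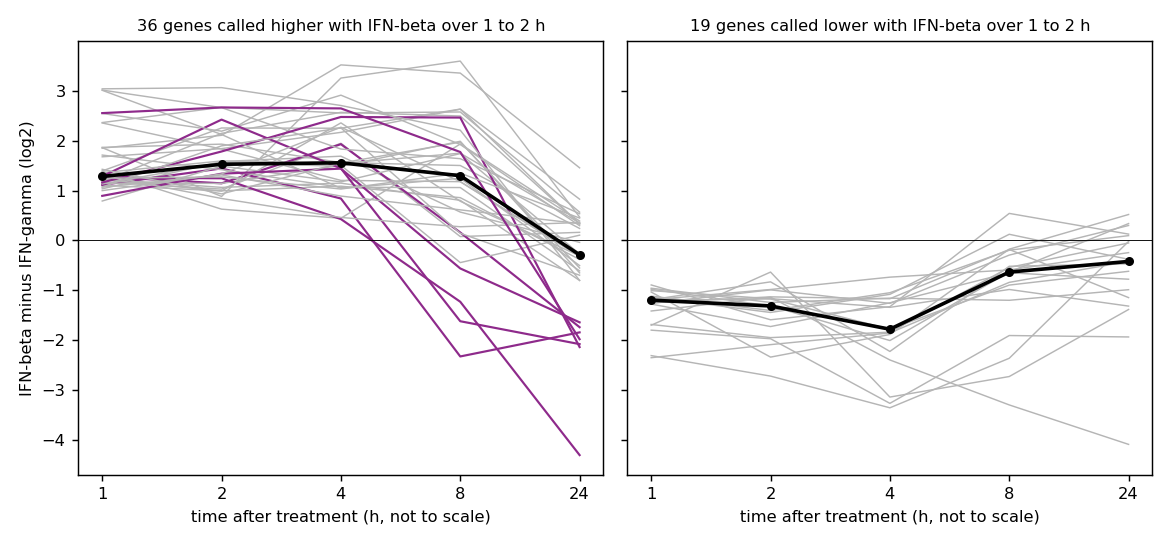
Difference IFN-beta minus IFN-gamma (log2) at 1, 2, 4, 8 and 24 h of the 36 genes called higher (left) and the 19 called lower (right) with IFN-beta over 1 to 2 h. Grey lines are genes, the black line with points is their median, and purple lines are the 7 genes called in the opposite direction at 24 h; the times are evenly spaced and not to scale. The left median stays between 1.28 and 1.55 until 8 h and is -0.29 at 24 h.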

How the data were processed

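The authors deposited 1 normalised intensity per probe set and array, on a linear scale. How they normalised is not given in the sources used here, and Affymetrix Expression Console 1.1 is named per the submitters' processing notes. The log2 of each deposited value was analysed without renormalising or filtering. Of 35556 probe sets 21218 had 1 gene symbol in the platform annotation, 1881 several and 12457 none. The brightest probe set of each gene was kept, which left 18820 genes.

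The 32 group means were estimated together from all 64 arrays (32 residual degrees of freedom) with limma 3.58.1 (R 4.3.3), without a term for the replicate number. The code was tested on simulated data. Alternatives were median centring, quantile normalisation, a filter at the 40th percentile, the mean of probe sets, the 8 or the 32 BALB/c arrays, limma's trend and robust options, the adjusted p alone, a replicate block, each array left out, and the array class as a covariate or its larger class alone. Chosen after seeing the data were 2 joint omissions and the contrast of 24 h with 1 to 2 h.

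Named genes were the 14 with the largest positive and the 10 with the largest negative difference whose arrays were apart at both times, up to 4 called members of each list or its leading member, and all receptor, JAK and STAT genes. The remaining called genes complete the set, and other genes given were chosen after their values were seen. Members and lists were chosen with earlier results of these data known. No genome build is stated for the probe sets, so coordinates are those of RefSeq promoter windows alone.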

Additional observations from a re-analysis of the deposited data

Results flagged for a closer look

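The difference between the interferons changed its direction from the first hours to 24 h in 7 genes, all higher with IFN-beta over 1 to 2 h and all called higher with IFN-gamma at 24 h. These genes were picked because they were called in both directions, so the change between the times is given as a description with no test. As the difference at 24 h less that over 1 to 2 h (± SE, n = 2 arrays a side at 24 h), it was -5.55 ± 0.41 in Gbp4 (from 1.25 to -4.30), -4.59 ± 0.45 in Tnfsf10 (from 2.61 to -1.98), -3.93 ± 0.23 in Otud1 (from 1.85 to -2.08) and -3.61 ± 0.31 in Lipg (from 1.47 to -2.14). It was -3.12 ± 0.26 in Ch25h (from 1.28 to -1.84), -2.95 ± 0.26 in Cd69 (from 1.21 to -1.74) and -2.76 ± 0.29 in Il15ra (from 1.12 to -1.64). None of the 19 genes higher with IFN-gamma changed direction in this way. The count at 24 h was 7 with the array class as a covariate and 8 without replicate 1 of IFN-gamma at 2 h, and at 8 h it was 3 (Otud1, Ch25h and Gbp4). Replicate 2 of IFN-beta at 24 h was in the smaller array class, and within the larger class the changes were -5.77 in Gbp4 and -2.63 in Il15ra.

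Probe sets left out of the gene tests also held differences. Of 1881 with several gene symbols, 2 were called higher with IFN-beta and 0 lower, the 2 with all 4 IFN-beta arrays above both 0 h arrays. Of 12457 without a gene, 5 were called higher with IFN-beta and 2 lower. Among the 5, 4 had all 4 IFN-beta arrays above 0 h, and among the 2, 1 had all 4 IFN-gamma arrays above 0 h. Of the 18820 genes tested 0.191% were called higher and 0.101% lower, and neither kind of probe set exceeded these shares.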

How the results depend on the processing

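No difference of a called gene changed sign under any alternative run, and 37 of the 55 genes lost their call at none of those that had a minimum change. Among the 37, Selp was not tested above the 40th percentile, which it did not reach on average. Counting by adjusted p alone, the numbers were 427 over 1 to 2 h, 115 at 1 h and 427 at 2 h, and 300, 176 and 58 of those 427 had an adjusted p under 0.05 the same way at 4, 8 and 24 h. In the fit of the 8 arrays with 4 group means 29 genes were called at 1 h. Over 1 to 2 h each fit of the 8 arrays alone kept 54 of the 55 calls. With time as a block, the adjusted p (limma) went from 7.72e-17 to 6.04e-05 for Mmp13 and from 2.82e-05 to 1.71e-05 for Ifit3. The change from 1 h to 2 h had 1 called gene with the array class as a covariate and 9 in the larger class alone. The cause was not tested. With each of the 8 arrays left out in turn, the counts ran from 53 to 65 over 1 to 2 h, 35 to 55 at 1 h, 73 to 110 at 2 h and 0 to 7 for the change between them. The replicate block left 55 genes called over 1 to 2 h, all shared, with 46 at 1 h, 82 at 2 h and 0 for the change between them, as without it. It was not run for later times. Same-numbered wells did not deviate together (correlation of replicate differences -0.01 at 1 h and -0.10 at 2 h), so the numbers were not taken as pairs. Median centring moved the median of all genes from 0.02 to 0.12 for the change from 1 h to 2 h and called 54 genes over 1 to 2 h. Omitting replicate 1 of IFN-gamma at 2 h and of IFN-beta at 1 h together gave 70 genes over 1 to 2 h, and the first omission with the class covariate gave 65. Levels below about 4.19 log2 may be near background, which the deposited values do not mark.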
